A study of Mus musculus with 8 samples.

Results

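The comparison of disulfiram (DSF) followed by lipopolysaccharide (LPS) with LPS alone was made on 4 of the 8 libraries of the series, 2 a side, and over all genes. The libraries were messenger RNA of iBMDM cells, an immortalized macrophage line from mouse bone marrow, of wild-type genotype. Cells of the DSF+LPS group received 5 μM DSF for 0.5 h and then 1 μg/ml LPS for 4 h, and cells of the LPS group received the solvent DMSO in place of DSF and then the same LPS. The other two groups had water in place of LPS, after DMSO (control) or DSF (DSF alone). The study asked whether DSF blocks the signalling that LPS starts at its receptor TLR4 by acting on the receptor's partner MD-2. The cells are a line kept in culture, and the labels do not say whether the libraries of a group came from separate cultures, so p-values reflect the spread among these libraries alone, and that spread may be technical.

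LPS, a component of the outer membrane of Gram-negative bacteria, is passed by LBP and CD14 to a complex of TLR4 and MD-2. The adaptor MyD88 then leads to NF-kB and early cytokines such as TNF and IL-1β, and the adaptor TRIF leads to interferon-β and, through it, to interferon-stimulated genes. DSF is a drug given for alcohol dependence; it inhibits aldehyde dehydrogenase, reacts with cysteines, and its metabolite binds copper.

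The LPS libraries held 21117680 and 21357810 counts and the DSF+LPS libraries 21033085 and 19637058. Counts were above 0 for 20324 and 20303 genes with LPS and for 25081 and 23416 genes with DSF+LPS, so that more genes were detected with the drug at a like depth. The mitochondrial share of counts was 1.66% and 1.81% with LPS and 1.35% and 1.33% with DSF+LPS, and the 10 most counted genes took 5.14% and 5.08% against 8.39% and 8.04%. The 8 macrophage markers summed to 2603 and 2507 CPM (counts scaled to a library total of 1000000) with LPS and to 2185 and 2269 CPM with DSF+LPS, and all 8 were detected. Of the 8, 5 fell (Fcgr1, Spi1, Itgam, Csf1r and Adgre1), 2 rose (Cd68 and Mertk) and Lyz2 was not called. Fcgr1 fell most, from 51.0 and 48.7 CPM with LPS to 9.32 and 9.47 CPM with DSF+LPS. Markers of neutrophils, dendritic cells, lymphocytes and fibroblasts summed to at most 3.57 CPM per list in any of the 4 libraries, and S100a9, Cd8a, Nkg7 and Cd3e were at 0 in all 4. The sum of 8 epithelial and endothelial markers was 19.8 and 20.5 CPM with LPS and 83.9 and 76.1 CPM with DSF+LPS. Of this sum Vwf, the von Willebrand factor gene, was 7.20 and 6.56 CPM with LPS and 72.03 and 68.03 CPM with DSF+LPS. Kdr went the other way, at 10.1 and 11.1 CPM with LPS and 7.655 and 4.84 CPM with DSF+LPS. Of the 4 tested markers of this list 2 rose and 1 fell. The part of these library differences in the results that follow was not tested, and in bulk RNA fewer expressing cells and less RNA per cell cannot be told apart.

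Of 16304 genes tested with edgeR's quasi-likelihood test, 5497 rose with the drug (33.7%) and 5156 fell (31.6%) at an adjusted p under 0.05. With a change of at least 2-fold as well, 3141 rose (19.3%) and 1609 fell (9.87%). Over all tested genes the median log2 fold change was 0.04. Both DSF+LPS libraries lay above both LPS libraries for 42.7% of genes and below them for 39.5%, whether called or not. Since 65.3% of all genes were called, counts of called members are to be read against these shares. Genes with no counts in either LPS library were tested only because other libraries held counts, and 421 of 422 rose. The call of such a gene is therefore no support for a rise. Among list members these are Inhba, Ido1, Hspb8, Mt3 and Aldh1a3. Levels are CPM after scaling between libraries, a log2 fold change is DSF+LPS over LPS with its approximate standard error, and each group has 2 libraries throughout.

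Among the receptor genes the drug left one level near that of LPS alone and moved the others in opposite directions. Tlr4, the receptor itself, was at 24.8 and 20.1 CPM in the LPS libraries and 21.1 and 20.5 CPM in the DSF+LPS libraries. The libraries overlapped (log2 fold change -0.11 ± 0.12, adjusted p = 0.436). Ly96, which encodes MD-2, was at 2.55 and 3.25 CPM in the LPS libraries and 8.02 and 6.99 CPM in the DSF+LPS libraries. Both DSF+LPS libraries were higher, and the gene rose 2.58-fold (log2 fold change 1.37 ± 0.21, adjusted p = 4.33e-05), although at 52 to 159 counts per library it was among the less deeply counted genes. Cd14, the co-receptor, was at 324 and 306 CPM in the LPS libraries and 150.3 and 189 CPM in the DSF+LPS libraries. Both DSF+LPS libraries were lower (log2 fold change -0.89 ± 0.10, adjusted p = 1.32e-06).

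Over the receptor complex and its proximal signalling chain, 15 of 26 tested members fell and 6 rose, with a median log2 fold change of -0.47. The largest falls were those of Irak3, which encodes an inhibitory kinase-like protein of the chain, and Ikbke, which encodes the kinase IKKε. Irak3 was at 84.6 and 82.0 CPM with LPS and 13.9 and 16.4 CPM with DSF+LPS (log2 fold change -2.46 ± 0.12, adjusted p = 1.89e-10). Ikbke was at 374 and 367 CPM with LPS and 70.2 and 84.5 CPM with DSF+LPS (log2 fold change -2.26 ± 0.09, adjusted p = 4.72e-11). In both genes the groups were far apart relative to the distance between replicates. The adaptor gene Myd88 stood at 176 and 168 CPM with LPS and 66.8 and 61.9 CPM with DSF+LPS and fell 2.67-fold (adjusted p = 7.77e-10), and Ticam2, the gene of the TRIF-bridging adaptor TRAM, fell by 1.57 on the log2 scale. The TRIF gene Ticam1 rose slightly (0.40 ± 0.13; not called without LPS library 2, adjusted p = 0.132, or DSF+LPS library 2, 0.139), as did Traf6, a ubiquitin ligase of the MyD88 branch (0.76 ± 0.08), and Ikbkg, the regulatory subunit of the IκB kinase (0.98 ± 0.10). Tollip (0.64 ± 0.08) and Sarm1 (3.77 ± 0.60), both negative regulators, rose as well, with Sarm1 at 0.147 and 0.335 CPM with LPS and 4.95 and 1.80 CPM with DSF+LPS. Of the chain's other not called members, Traf3 had a log2 fold change of -0.06 ± 0.08, Ikbkb -0.02 ± 0.07, Irak1 0.05 ± 0.07 and Tab1 -0.23 ± 0.13; Tab1 passed the test without DSF+LPS library 2 (adjusted p = 0.016).

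In the NF-kB list, 22 of 28 members fell, 14 of them at least 2-fold, and 5 rose. The median log2 fold change was -0.94. This list also holds Socs3 and Cish, which act on cytokine receptor signalling and are not NF-kB subunits. Nfkbia, the gene of the inhibitor IκBα and itself an NF-kB target, was at 403 and 363 CPM in the LPS libraries and 125 and 154 CPM in the DSF+LPS libraries. Both DSF+LPS libraries were below both LPS libraries, a fall of 2.75-fold (log2 fold change -1.46 ± 0.10, adjusted p = 6.66e-09). Socs3, a feedback inhibitor of cytokine receptors, was at 264 and 242 CPM with LPS and 42.4 and 27.7 CPM with DSF+LPS (log2 fold change -2.85 ± 0.15, adjusted p = 5.55e-10). Birc3, an inhibitor of apoptosis, was at 142 and 143 CPM with LPS and 23.9 and 29.9 CPM with DSF+LPS (log2 fold change -2.41 ± 0.11, adjusted p = 1.10e-10). Cish, a further inhibitor of cytokine signalling, fell by 3.57 on the log2 scale from 7.81 and 6.07 CPM, and Tnip3 fell by 2.07. All of these were lower in both drug libraries. The members that rose were Tank (0.35 ± 0.08), Traf2 (0.45 ± 0.09), the subunit genes Relb (0.66 ± 0.08) and Rela (0.89 ± 0.08), and Nfkbib, the gene of IκBβ, which was at 108 and 107 CPM with LPS and 247 and 278 CPM with DSF+LPS (1.29 ± 0.09). Zfp36, whose protein destabilises cytokine mRNAs, was at 202 and 201 CPM with LPS and 268 and 188 CPM with DSF+LPS. Its DSF+LPS libraries lay on either side of the LPS libraries (log2 fold change 0.18 ± 0.14, adjusted p = 0.283), and it passed the test without DSF+LPS library 2 (adjusted p = 0.00133).

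Most cytokine genes fell with the drug. Of 21 tested, 15 fell, 14 of them at least 2-fold, and 3 rose, with a median log2 fold change of -1.87. Il1b, the gene of interleukin-1β, was at 608 and 576 CPM in the LPS libraries and 10.7 and 13.9 CPM in the DSF+LPS libraries. The drug libraries were 48.4-fold lower (log2 fold change -5.60 ± 0.23, adjusted p = 3.87e-11), yet still above the 0.310 and 1.61 CPM in the control libraries and 0.634 and 2.53 CPM with DSF alone. Il6 was at 151 and 158 CPM in the LPS libraries and 2.98 and 3.98 CPM in the DSF+LPS libraries. It fell 44.4-fold (log2 fold change -5.47 ± 0.22, adjusted p = 2.99e-11). Tnf was at 833 and 849.9 CPM in the LPS libraries and 202 and 259 CPM in the DSF+LPS libraries. Its fall was 3.66-fold (log2 fold change -1.87 ± 0.10, adjusted p = 8.10e-10), so that more of this transcript than of Il1b or Il6 remained relative to LPS alone.

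Il12b, the shared subunit of interleukin-12 and interleukin-23, was at 8.20 and 8.27 CPM with LPS and 0.0505 and 0.218 CPM with DSF+LPS, which is 5 counts over both drug libraries (log2 fold change -5.91 ± 0.50, adjusted p = 1.85e-07). The colony-stimulating factor gene Csf3 was at 243 and 241 CPM with LPS and 9.03 and 11.9 CPM with DSF+LPS (log2 fold change -4.53 ± 0.13, adjusted p = 1.22e-12). Il1a was at 116 and 119.5 CPM with LPS and 5.45 and 4.75 CPM with DSF+LPS (log2 fold change -4.52 ± 0.23, adjusted p = 4.14e-10). In these genes the replicates of a group differed by far less than the groups. Il1rn, the natural antagonist of the interleukin-1 receptor, was at 535 and 549.5 CPM with LPS and 139 and 167 CPM with DSF+LPS and fell 3.55-fold. Csf1, the macrophage growth factor gene, went the other way, at 90.7 and 90.6 CPM with LPS and 163 and 238 CPM with DSF+LPS (log2 fold change 1.14 ± 0.14, adjusted p = 5.00e-06). Il23a rose from 0.344 and 0.478 CPM to 1.92 and 2.46 CPM. Inhba was at 0 in both LPS libraries and had 15 counts over both drug libraries, at least 5.41-fold higher. As a gene with no counts with LPS alone it had to differ. Its call was lost without LPS library 1, LPS library 2 or DSF+LPS library 1.

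The cytokine genes that were not called are those of Il10, Osm and Tnfsf9. Il10, an anti-inflammatory cytokine, was at 5.35 and 5.64 CPM with LPS and 4.84 and 5.89 CPM with DSF+LPS (log2 fold change -0.04 ± 0.23, adjusted p = 0.902). Osm, the oncostatin M gene, was at 65.3 and 60.6 CPM with LPS and 68.1 and 70.4 CPM with DSF+LPS (log2 fold change 0.14 ± 0.09, adjusted p = 0.179). Tnfsf9, the 4-1BB ligand gene, was at 39.9 and 40.7 CPM with LPS and 36.9 and 32.7 CPM with DSF+LPS (log2 fold change -0.21 ± 0.10, adjusted p = 0.0732), and passed the test without DSF+LPS library 1 (adjusted p = 0.0209). The groups overlapped in Il10 and did not in Osm and Tnfsf9.

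Of 15 chemokine genes tested, 13 fell, 12 of them at least 2-fold, none rose, and the median log2 fold change was -3.31. Ccl7, a monocyte attractant, was at 446 and 365 CPM in the LPS libraries and 26.4 and 27.0 CPM in the DSF+LPS libraries. It was 15.2-fold lower with the drug (log2 fold change -3.92 ± 0.10, adjusted p = 5.56e-13). Ccl4 was at 1146 and 1208 CPM with LPS and 93.5 and 119 CPM with DSF+LPS (log2 fold change -3.47 ± 0.11, adjusted p = 1.91e-12). Cxcl10, an attractant of T cells induced by interferon, was at 1009 and 885 CPM with LPS and 98.9 and 90.4 CPM with DSF+LPS (log2 fold change -3.32 ± 0.11, adjusted p = 6.13e-12). Ccl2, Ccl3, Ccl5, Ccl9, Ccl12 and Cx3cl1 fell by 2.74 to 3.79 on the log2 scale. Cxcl2 and Cxcl3, both genes of neutrophil attractants, were not called. Cxcl2 was at 1532 and 1577 CPM in the LPS libraries and 1445 and 1882 CPM in the DSF+LPS libraries. The drug libraries lay on either side of the LPS libraries (log2 fold change 0.10 ± 0.10, adjusted p = 0.394); without DSF+LPS library 1 the log2 fold change was 0.26 (adjusted p = 0.00417) and without DSF+LPS library 2 it was -0.09. Cxcl3 was at 2.50 and 3.01 CPM with LPS and 2.27 and 3.88 CPM with DSF+LPS, also overlapping (log2 fold change 0.15 ± 0.36, adjusted p = 0.73). The chemokine genes lie in clusters of related copies, and how reads matching several copies were counted is not given in the sources used here.

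**Figure D1:**
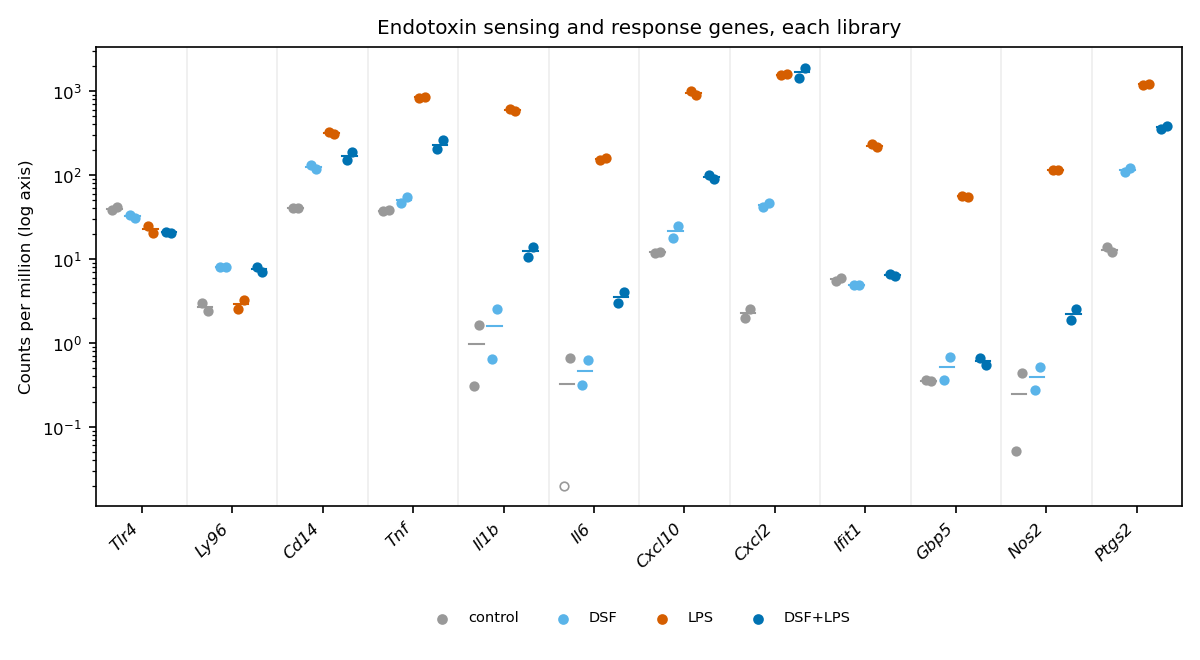
Level of 12 endotoxin-sensing and response genes in each of the 8 libraries, in CPM on a log axis; points are libraries, bars are means of the 2 libraries of a group, and an open circle at the bottom is a library with no counts. Il1b, Il6, Cxcl10, Ifit1, Gbp5 and Nos2 lay far lower with DSF+LPS than with LPS, while Cxcl2 and Tlr4 had overlapping values in these groups and Ly96 was higher with the drug.

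Interferon-stimulated genes were the list with the lowest median of the 23. Of 46 tested members, 45 fell, each by at least 2-fold, and none rose; the median log2 fold change was -3.50, against 0.04 for all genes. Ifit1, which binds foreign RNA, was at 233 and 214 CPM in the LPS libraries and 6.61 and 6.28 CPM in the DSF+LPS libraries. It fell 34.6-fold (log2 fold change -5.11 ± 0.10, adjusted p = 4.60e-14) and its drug libraries lay close to the 5.48 and 5.93 CPM in the control libraries and 4.89 and 4.91 CPM with DSF alone. Gbp5, a guanylate-binding protein of antibacterial defence, was at 56.8 and 54.1 CPM in the LPS libraries and 0.656 and 0.546 CPM in the DSF+LPS libraries. It fell 91.1-fold (log2 fold change -6.51 ± 0.20, adjusted p = 2.14e-12), and without LPS it was at 0.362 and 0.349 CPM in the control libraries and 0.362 and 0.671 CPM with DSF alone. The drug libraries of both genes lay far closer to the libraries without LPS than to those with LPS alone.

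Rsad2, the gene of the antiviral enzyme viperin, was at 524 and 487 CPM with LPS and 40.7 and 34.5 CPM with DSF+LPS (log2 fold change -3.75 ± 0.10, adjusted p = 5.56e-13). Ifit2 was at 209.6 and 200.4 CPM with LPS and 5.10 and 4.26 CPM with DSF+LPS (log2 fold change -5.45 ± 0.12, adjusted p = 9.95e-14). Slfn5, Ifit3 and Parp14 fell, with log2 fold changes of -5.42, -5.12 and -4.98, as did the interferon signalling genes Stat2 (-2.60), Irf7 (-2.12) and Irf9 (-2.01). The smallest called falls were those of Oas1a (-1.03) and Ifi35 (-1.15). Bst2, the tetherin gene, was at 324 and 299 CPM with LPS and 281 and 277 CPM with DSF+LPS and not called (log2 fold change -0.16 ± 0.07, adjusted p = 0.0518), and it passed the test without LPS library 2 (adjusted p = 0.0382) or DSF+LPS library 1 (0.0494). Ifit3 and Ifit3b, and Oas1a and Oas1g, are near-identical copies whose counts may have been shared. The interferon-β gene Ifnb1 was not among the tested genes.

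The promoters of genes that fell and of one that did not are shown to set the sequence beside the values. Windows are from RefSeq on GRCm38.p6 and hold the 250 bases before the start site, 5′ to 3′ on the gene's strand, with motif matches in capitals. In Ifit1 (chr19:34640639-34640888, plus strand), Rsad2 (chr12:26456453-26456702, minus strand) and Cxcl10 (chr5:92348890-92349139, minus strand) the capitals mark matches, on either strand, to the core of the interferon-stimulated response element, searched as GAAA, any 2 bases and GAAA again; in Cxcl10 and Cxcl2 (chr5:90903649-90903898, plus strand) they also mark the NF-kB consensus site.
Ifit1: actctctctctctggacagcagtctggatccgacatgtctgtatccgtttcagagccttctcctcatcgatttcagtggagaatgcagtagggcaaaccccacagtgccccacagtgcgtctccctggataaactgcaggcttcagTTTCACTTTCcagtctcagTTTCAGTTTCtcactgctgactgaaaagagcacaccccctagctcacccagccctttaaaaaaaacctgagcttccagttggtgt
Rsad2: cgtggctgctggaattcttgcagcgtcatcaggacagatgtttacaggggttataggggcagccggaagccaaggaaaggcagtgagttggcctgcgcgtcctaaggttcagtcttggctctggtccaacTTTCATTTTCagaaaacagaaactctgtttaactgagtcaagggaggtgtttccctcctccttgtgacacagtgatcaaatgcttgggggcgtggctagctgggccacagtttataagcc
Cxcl10: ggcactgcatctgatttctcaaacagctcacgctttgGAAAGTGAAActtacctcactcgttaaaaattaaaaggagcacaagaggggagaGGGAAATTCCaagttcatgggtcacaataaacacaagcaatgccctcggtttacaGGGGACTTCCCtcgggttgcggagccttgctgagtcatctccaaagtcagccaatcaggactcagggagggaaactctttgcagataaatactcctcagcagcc
Cxcl2: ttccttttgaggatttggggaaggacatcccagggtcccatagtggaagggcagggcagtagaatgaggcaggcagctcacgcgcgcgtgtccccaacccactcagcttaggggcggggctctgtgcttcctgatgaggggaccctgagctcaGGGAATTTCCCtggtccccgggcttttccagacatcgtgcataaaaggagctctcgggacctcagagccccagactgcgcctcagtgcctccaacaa

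The Ifit1 window holds matches that begin 104 and 85 bases before the start site, and the Rsad2 window holds 1 that begins 120 bases before it. Cxcl10, which fell by 3.32 on the log2 scale, has a response element match beginning 213 bases before the start and NF-kB matches beginning 159, 104 and 103 bases before it, the last of which overlap. Cxcl2, which was not called, has overlapping NF-kB matches beginning 97 and 96 bases before the start and no response element match in this window. Of the 47 interferon-stimulated genes listed, 35 matched a RefSeq promoter and 20 of these (57.1%) held the response element core, against 3.46% of 27025 genes. The holders included Bst2, which was not called, and Oas1a, which had the smallest called fall. Ifit2 was not among them, and whether it matched a promoter is not given here. The NF-kB consensus was found for 11 of 25 matched genes of the NF-kB list (44.0%), against 8.23% of all genes. Among 13 matched chemokine genes, it was found for 5 (Ccl9, Cxcl1, Cxcl2, Cxcl3 and Cxcl10, 38.5%) and the response element core for 2 (Cxcl10 and Cxcl14, 15.4%). Of these, Ccl9 and Cxcl10 fell, Cxcl2 and Cxcl3 were not called, and Cxcl1 and Cxcl14 were not tested. Ccl7 and Ccl4, which fell, were not among the holders of either motif. Response element and NF-kB matches overlapped in 2 of 32851 windows. A match describes letters only.

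Of 25 inflammatory effector genes, 15 fell and 7 rose, with a median log2 fold change of -1.58. Nos2, which encodes inducible nitric oxide synthase, was at 114 and 113 CPM in the LPS libraries and 1.87 and 2.56 CPM in the DSF+LPS libraries. It fell 51.3-fold (log2 fold change -5.68 ± 0.19, adjusted p = 4.54e-12). Ptgs2, the gene of cyclooxygenase-2, was at 1186 and 1218 CPM in the LPS libraries and 349 and 385 CPM in the DSF+LPS libraries. It fell 3.27-fold (log2 fold change -1.71 ± 0.08, adjusted p = 1.11e-10), a smaller factor than Nos2, and stayed above the 13.7 and 12.1 CPM in the control libraries and 107 and 121 CPM with DSF alone. Acod1, which makes itaconate, was at 2273 and 2217 CPM with LPS and 302 and 469 CPM with DSF+LPS (log2 fold change -2.54 ± 0.14, adjusted p = 1.34e-09). Lcn2, the siderophore-binding lipocalin gene, was at 22.7 and 19.8 CPM with LPS and 0.606 and 0.655 CPM with DSF+LPS (log2 fold change -5.06 ± 0.29, adjusted p = 1.55e-09). Saa3, Cfb, Serpinb2 and Cybb fell by 3.80, 4.59, 3.67 and 2.97 on the log2 scale. All of these were lower in both drug libraries. Among the genes that rose, Alox5 and Ptges went up from 0.0982 and 0.191 and from 2.50 and 3.16 CPM, by 2.24 ± 0.73 and 1.40 ± 0.26 on the log2 scale; Alox5 lost its call without LPS library 1 (adjusted p = 0.116) or DSF+LPS library 1 (0.0650). Ido1 was at 0 in both LPS libraries and had 17 counts over both drug libraries, at least 6.13-fold higher. It too had to differ for that reason, and its call was lost without DSF+LPS library 1. Mmp9 (-0.41 ± 0.17), Hp (-0.76 ± 0.55) and Plau (0.08 ± 0.07) were not called; Mmp9 passed without DSF+LPS library 1 (adjusted p = 0.000857).

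Antigen presentation genes fell more often than they rose. Of 25 tested, 17 fell and 5 rose, with a median log2 fold change of -0.73. Tap1, a subunit of the peptide transporter for class I molecules, was at 128 and 113 CPM with LPS and 21.2 and 18.3 CPM with DSF+LPS (log2 fold change -2.61 ± 0.10, adjusted p = 2.45e-11). The co-stimulatory ligand gene Icosl fell by 1.80 on the log2 scale, Erap1, a peptide-trimming enzyme gene, by 1.68, and Cd40 was at 239 and 218 CPM with LPS and 123 and 145 CPM with DSF+LPS (log2 fold change -0.77 ± 0.09, adjusted p = 3.82e-06). The genes that rose included the class I heavy chains H2-D1 (0.46 ± 0.06) and H2-K1 (0.71 ± 0.06), which resemble each other closely, and the class II genes Cd74, H2-DMa and H2-Eb1. Cd74, the invariant chain, was at 508 and 498 CPM with LPS and 1053 and 1164 CPM with DSF+LPS (log2 fold change 1.14 ± 0.06, adjusted p = 1.37e-09). H2-DMa rose by 1.76 ± 0.28. H2-Eb1 was below 1 CPM in every library of both groups (log2 fold change 2.08 ± 0.80, adjusted p = 0.0332), and its call was lost without any 1 of the 4 libraries (adjusted p from 0.0728 to 0.217) and with DESeq2 (0.0972). Not called were Ciita (-0.61 ± 0.45), H2-Aa (0.49 ± 0.63) and H2-T23 (0.10 ± 0.15).

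Of 22 inflammasome and pyroptosis genes, 13 fell and 6 rose, with a median log2 fold change of -0.66. Nlrp3, the sensor induced by LPS priming, was at 619.7 and 616 CPM in the LPS libraries and 208 and 271 CPM in the DSF+LPS libraries. It fell 2.58-fold (log2 fold change -1.37 ± 0.10, adjusted p = 1.48e-08). Il18 was at 16.6 and 15.8 CPM with LPS and 4.14 and 2.73 CPM with DSF+LPS (log2 fold change -2.23 ± 0.25, adjusted p = 1.84e-06). Casp1 and Txnip fell by 1.25 and 1.33 on the log2 scale, and Gsdmd, which forms the pyroptotic pore, by 0.63. Of the genes that rose, P2rx7, the ATP-gated channel, was at 10.7 and 9.95 CPM with LPS and 22.6 and 14.8 CPM with DSF+LPS (log2 fold change 0.86 ± 0.19, adjusted p = 0.001). Mefv, the pyrin gene, rose to 0.908 and 2.51 CPM, and lost its call without LPS library 2 (adjusted p = 0.117) or DSF+LPS library 2 (0.287). Gsdme (0.05 ± 0.15), Pycard (0.09 ± 0.16) and Nlrp1b (0.20 ± 0.29) were not called; Nlrp1b passed without DSF+LPS library 2 (adjusted p = 0.0287).

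Genes of macrophage identity and surface receptors fell in 19 of 27 cases and rose in 6, with a median log2 fold change of -0.59. P2ry13, a purinergic receptor gene, was at 7.61 and 7.36 CPM with LPS and 0.454 and 0.273 CPM with DSF+LPS (log2 fold change -4.33 ± 0.32, adjusted p = 2.65e-08). Cx3cr1, the fractalkine receptor gene, was at 7.51 and 6.93 CPM with LPS and 0.707 and 0.327 CPM with DSF+LPS (log2 fold change -3.77 ± 0.36, adjusted p = 3.87e-07). Tlr2, the receptor for bacterial lipoproteins, was at 295 and 293 CPM with LPS and 22.7 and 30.7 CPM with DSF+LPS (log2 fold change -3.46 ± 0.11, adjusted p = 3.94e-12). In each of them both drug libraries lay below both LPS libraries. Spi1, which encodes the lineage factor PU.1, fell by 0.96 and Csf1r, the receptor for the macrophage growth factor, by 0.59. Cebpa, a transcription factor gene of the myeloid lineage, rose by 2.29 ± 0.21. Tlr9, the receptor for CpG DNA, was at 10.8 and 10.1 CPM with LPS and 25.3 and 34.0 CPM with DSF+LPS (log2 fold change 1.50 ± 0.15, adjusted p = 4.55e-07). Trem2, a lipid receptor gene, was at 112 and 106 CPM with LPS and 232 and 215 CPM with DSF+LPS (log2 fold change 1.04 ± 0.07, adjusted p = 1.64e-08). Cd68 (0.72 ± 0.08) and Mertk (1.25 ± 0.43) rose as well, and Mertk lost its call without LPS library 1 (adjusted p = 0.149) or DSF+LPS library 1 (0.225). Lyz2 (0.01 ± 0.07) and P2ry12 (-0.29 ± 0.36) were not called.

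**Figure D2:**
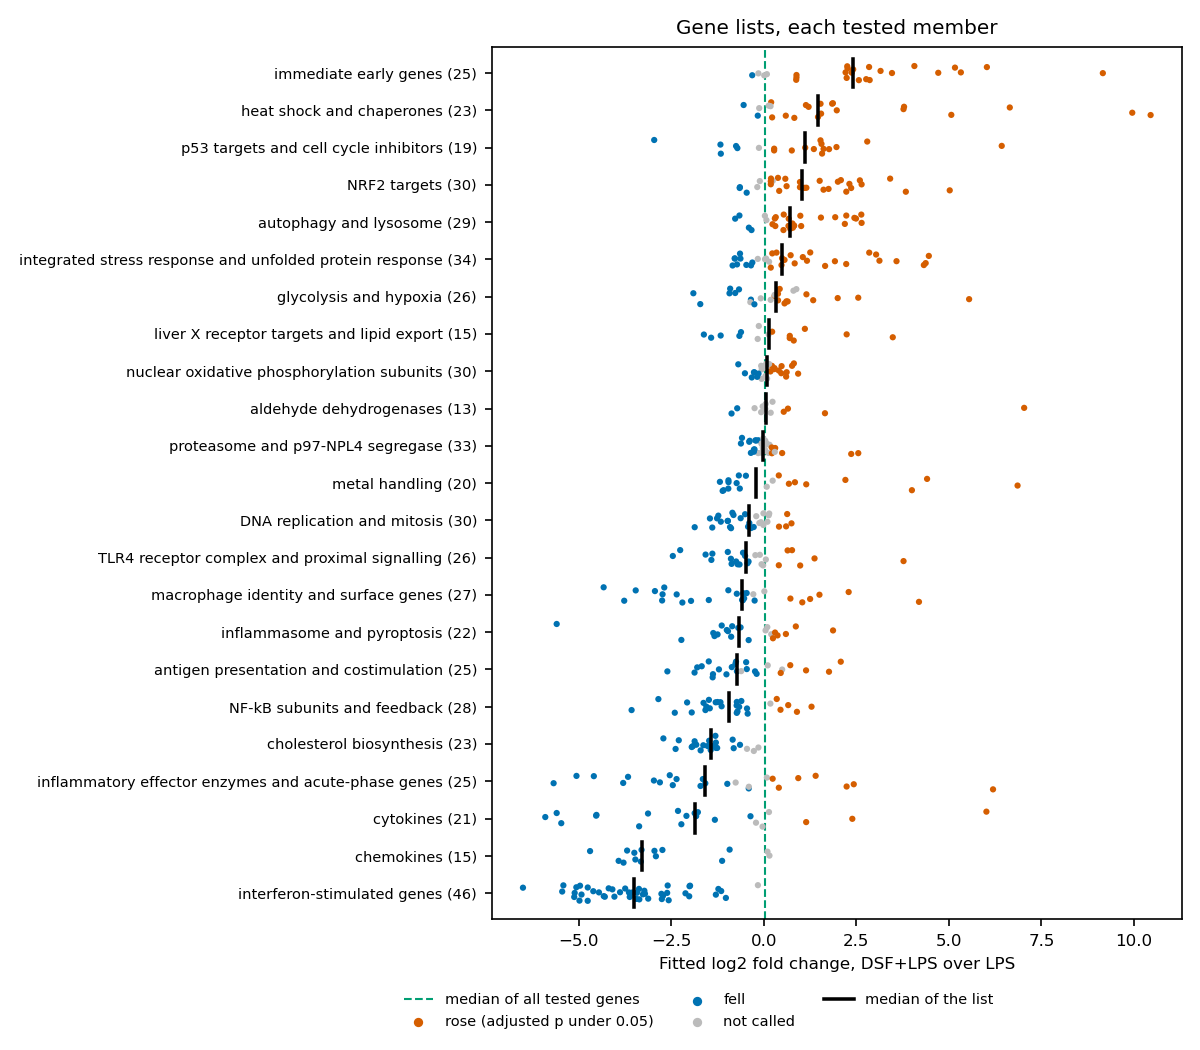
Fitted log2 fold change of DSF+LPS over LPS for every tested member of the 23 lists, ordered by list median; the number tested is in brackets, colour marks the call, the black bar is the list's median and the dashed line the median of all genes (0.04). Medians ran from -3.50 for interferon-stimulated genes to 2.41 for immediate early genes.

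Most heat shock genes rose with the drug. Of 23 tested, 18 rose, 14 of them at least 2-fold, and 2 fell; the median log2 fold change was 1.46. Hspa1a, an inducible HSP70 gene, was at 3.44 and 3.40 CPM in the LPS libraries and 5773 and 3813 CPM in the DSF+LPS libraries. The rise was 1401-fold (log2 fold change 10.45 ± 0.23, adjusted p = 9.29e-14). Its near-identical neighbour Hspa1b was at 16.6 and 15.0 CPM in the LPS libraries and 17990 and 13410 CPM in the DSF+LPS libraries. It rose 992-fold (log2 fold change 9.95 ± 0.20, adjusted p = 4.40e-14), and reads of the 2 copies may have been shared between them. In both genes the LPS libraries were at the level of the unstimulated ones, with Hspa1a at 3.26 and 4.10 CPM in the control libraries and 2687 and 3343 CPM with DSF alone.

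Dnajb1, an HSP40 partner of HSP70, was at 42.2 and 39.5 CPM with LPS and 1686 and 1052 CPM with DSF+LPS (log2 fold change 5.07 ± 0.21, adjusted p = 3.76e-11). Hsph1, the HSP110 exchange factor, was at 212 and 203 CPM with LPS and 2932 and 2740 CPM with DSF+LPS (log2 fold change 3.77 ± 0.07, adjusted p = 2.45e-14). Bag3, a co-chaperone gene, was at 55.7 and 56.0 CPM with LPS and 239 and 198 CPM with DSF+LPS (log2 fold change 1.97 ± 0.10, adjusted p = 3.85e-10). All 3 were higher in both drug libraries. The constitutive genes Hspa8 and Hsp90aa1 rose by 1.84 ± 0.07 and 1.55 ± 0.07, and the mitochondrial chaperonin gene Hspe1 by 0.82 ± 0.11. Hspb1 rose from 0.196 and 0.191 to 3.58 and 1.91 CPM, and Hspb8, at 0 in both LPS libraries, had 23 counts over both drug libraries, at least 8.29-fold higher. The members that fell were Cacybp (-0.55 ± 0.07) and Hspa4 (-0.16 ± 0.06), and Hspa4 lost its call without LPS library 2 (adjusted p = 0.0961) or DSF+LPS library 2 (0.0813), on the 4 LPS libraries alone (0.133), with DESeq2 (0.0644) and with relative log expression factors (0.0585). Hsf1, the gene of the heat shock factor (-0.13 ± 0.09), Hsf2 (0.18 ± 0.21) and Fkbp4 (0.13 ± 0.06) were not called.

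The Hspe1 promoter is shown for its heat shock element, searched on both strands as 3 alternating blocks of GAA and TTC with any 2 bases between blocks (GRCm38.p6, chr1:55087898-55088147, plus strand), with the 2 overlapping matches, which begin 89 and 84 bases before the start, in capitals.
Hspe1: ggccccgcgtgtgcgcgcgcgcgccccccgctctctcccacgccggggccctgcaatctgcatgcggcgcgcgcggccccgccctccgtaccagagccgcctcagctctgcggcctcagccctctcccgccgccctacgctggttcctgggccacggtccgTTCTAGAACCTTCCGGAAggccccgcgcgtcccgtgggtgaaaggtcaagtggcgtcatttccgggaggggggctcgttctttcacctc
Of 19 heat shock genes matched to a RefSeq promoter, 2 held this motif within 250 bases (Hspd1 and Hspe1, 10.5%), against 0.514% of all genes. Whether the matches of Hspd1 and Hspe1 are the same site was not tested. Hspa1a, Hspa1b and Dnajb1, which rose more than Hspe1, were not among the holders. Whether each of them matched a promoter is not given here.

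NRF2 targets, the genes of antioxidant and detoxifying enzymes, rose in 24 of 30 cases, 15 of them at least 2-fold, and fell in 3; the median log2 fold change was 1.04. Hmox1, which encodes haem oxygenase 1, was at 212 and 213 CPM in the LPS libraries and 6090 and 7720 CPM in the DSF+LPS libraries. It rose 32.5-fold (log2 fold change 5.02 ± 0.10, adjusted p = 4.40e-14). Srxn1, sulfiredoxin, was at 92.0 and 91.9 CPM in the LPS libraries and 788 and 1170 CPM in the DSF+LPS libraries. It rose 10.6-fold (log2 fold change 3.41 ± 0.14, adjusted p = 5.77e-11). Osgin1 was at 7.51 and 8.32 CPM with LPS and 118 and 108 CPM with DSF+LPS (log2 fold change 3.84 ± 0.11, adjusted p = 1.61e-12). Gclm, the modifier subunit of the enzyme that limits glutathione synthesis, was at 61.6 and 68.6 CPM with LPS and 346 and 440.4 CPM with DSF+LPS (log2 fold change 2.59 ± 0.12, adjusted p = 1.11e-10). Slc7a11, the cystine importer, was at 125 and 135 CPM with LPS and 354 and 441 CPM with DSF+LPS (log2 fold change 1.61 ± 0.10, adjusted p = 3.70e-09). In each of these genes both drug libraries exceeded both LPS libraries. The iron exporter gene Slc40a1 rose by 2.64 ± 0.14, the quinone reductase gene Nqo1 by 1.51 ± 0.27 and the thioredoxin reductase gene Txnrd1 by 0.98 ± 0.09. Nfe2l2, the gene of NRF2 itself, fell (-0.65 ± 0.07), as did Keap1, its repressor (-0.65 ± 0.11), and Gsr, glutathione reductase (-0.46 ± 0.11). Me1 (0.24 ± 0.12), Trim16 (-0.18 ± 0.21) and G6pdx (-0.11 ± 0.07) were not called. The antioxidant response element core, TGACNNNGC on both strands, was in 7 of 24 matched promoters (29.2%), against 11.5% of all genes.

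Of 20 metal-handling genes, 8 rose and 10 fell, with a median log2 fold change of -0.20. Mt1, a metallothionein gene, was at 303 and 289 CPM in the LPS libraries and 4598 and 4881 CPM in the DSF+LPS libraries. It rose 16.0-fold (log2 fold change 4.00 ± 0.07, adjusted p = 2.45e-14). Mt2 was at 1.47 and 1.29 CPM with LPS and 32.1 and 26.8 CPM with DSF+LPS (log2 fold change 4.41 ± 0.21, adjusted p = 1.96e-10). Slc30a1, which exports zinc from the cell, was at 30.5 and 30.2 CPM with LPS and 122 and 157 CPM with DSF+LPS (log2 fold change 2.20 ± 0.11, adjusted p = 3.90e-10). Mt3, at 0 in both LPS libraries, had 27 counts over both drug libraries, at least 9.74-fold higher. These 4 genes, the copper exporter gene Atp7a (0.68 ± 0.10), the copper chaperone genes Atox1 (0.84 ± 0.10) and Ccs (0.40 ± 0.12) and Sod1 (1.15 ± 0.09) made up the rises, of which Ccs lost its call without LPS library 2 (adjusted p = 0.129). The falls included the zinc transporter genes Slc30a6 (-1.19 ± 0.13) and Slc39a1 (-1.11 ± 0.09) and the copper importer gene Slc31a1 (-0.68 ± 0.08). Mtf1, the gene of the metal-sensing transcription factor (0.24 ± 0.11), and Fdx1 (0.08 ± 0.11) were not called, and Mtf1 passed without DSF+LPS library 1 (adjusted p = 0.00216), with DESeq2 (0.0435), with relative log expression factors (0.0341), with the 1 CPM filter (0.0410) and on the 4 LPS libraries alone (0.0414). The metal response element searched as TGCGCNC or TGCACNC on both strands was in 10 of 19 matched promoters of this list (52.6%), against 23.8% of all genes.

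Of 34 genes in the joint list of the integrated stress response and the unfolded protein response 21 rose, 13 of them at least 2-fold, and 9 fell, with a median log2 fold change of 0.48. Ddit4, an inhibitor of mTORC1, was at 5.55 and 4.45 CPM with LPS and 131 and 88.6 CPM with DSF+LPS (log2 fold change 4.46 ± 0.20, adjusted p = 9.55e-11). Trib3, a pseudokinase gene induced by ATF4, was at 13.01 and 12.8 CPM with LPS and 273 and 262 CPM with DSF+LPS (log2 fold change 4.37 ± 0.08, adjusted p = 3.45e-14). Chac1, a glutathione-degrading enzyme gene, was at 6.19 and 4.97 CPM with LPS and 139 and 84.2 CPM with DSF+LPS (log2 fold change 4.32 ± 0.26, adjusted p = 3.07e-09). The drug libraries were all above the LPS libraries in these genes. Ppp1r15a, which directs dephosphorylation of eIF2α, rose by 3.58 ± 0.12, Ddit3, the gene of CHOP, by 3.12 ± 0.15, and Atf4 itself by 0.72 ± 0.06. The unfolded protein response genes Ern1 and Dnajb9 rose too, by 2.23 ± 0.10 and 2.85 ± 0.14. The 9 genes that fell belong to the endoplasmic reticulum or its stress response, among them Manf (-0.84 ± 0.08), Pdia4 (-0.79 ± 0.08), Hsp90b1 (-0.78 ± 0.06), Edem1 (-0.72 ± 0.07) and Xbp1 (-0.64 ± 0.08). Hspa5, the chaperone BiP, was at 1251 and 1161 CPM with LPS and 1180 and 972 CPM with DSF+LPS (log2 fold change -0.16 ± 0.09, adjusted p = 0.113), and passed without DSF+LPS library 1 (adjusted p = 0.00136). Ppp1r15b (0.03 ± 0.08), Herpud1 (0.06 ± 0.13) and Sdf2l1 (0.14 ± 0.08) were not called either. The composite site of ATF4 and C/EBP factors, TGATGNAA on both strands, was in 5 of 31 matched promoters of this list (Atf3, Chac1, Asns, Vldlr and Herpud1, 16.1%), against 3.91% of all genes.

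Proteasome genes moved little. Of 33 genes for proteasome subunits, the p97-NPL4 segregase and polyubiquitin, 7 rose and 11 fell, and none fell 2-fold; the median log2 fold change was -0.03, and without LPS library 2 only 4 were called as rising. Ubb, a polyubiquitin gene, moved more, at 727 and 670.0 CPM with LPS and 3674 and 3500 CPM with DSF+LPS (log2 fold change 2.36 ± 0.09, adjusted p = 2.48e-11), and was higher in both drug libraries. Nfe2l1, the factor that drives proteasome genes when the proteasome is impaired, fell (-0.62 ± 0.10). Nploc4, whose protein NPL4 binds the copper complex of a DSF metabolite, was at 169.7 and 174 CPM with LPS and 164 and 182 CPM with DSF+LPS, with overlapping libraries (log2 fold change 0.01 ± 0.07, adjusted p = 0.917), and its partners Vcp (-0.07 ± 0.09) and Ufd1 (0.04 ± 0.10) were not called.

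Autophagy and lysosome genes rose in 23 of 29 cases, 9 of them at least 2-fold, and fell in 4, with a median log2 fold change of 0.71. Sqstm1, the receptor p62 and also an NRF2 target, was at 1028 and 997 CPM in the LPS libraries and 4147 and 5331 CPM in the DSF+LPS libraries. It rose 4.68-fold (log2 fold change 2.23 ± 0.09, adjusted p = 2.84e-11). Nbr1, a related receptor, was at 37.7 and 35.3 CPM with LPS and 242 and 213 CPM with DSF+LPS (log2 fold change 2.64 ± 0.09, adjusted p = 4.07e-12). Ulk1, the initiating kinase, was at 14.0 and 13.2 CPM with LPS and 85.6 and 83.4 CPM with DSF+LPS (log2 fold change 2.63 ± 0.10, adjusted p = 2.15e-11). Optn, a further receptor gene, rose by 2.49 ± 0.14, and the gene of the membrane-bound protein GABARAPL1 by 2.45 ± 0.09. Both drug libraries were above both LPS libraries in these 5 genes. The members that fell were Mitf (-0.78 ± 0.09), Atg5 (-0.66 ± 0.14), Lamp2 (-0.40 ± 0.07) and Tfe3 (-0.33 ± 0.08). Gabarapl2 (0.07 ± 0.16) and Hexa (0.03 ± 0.07) were not called.

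**Figure D3:**
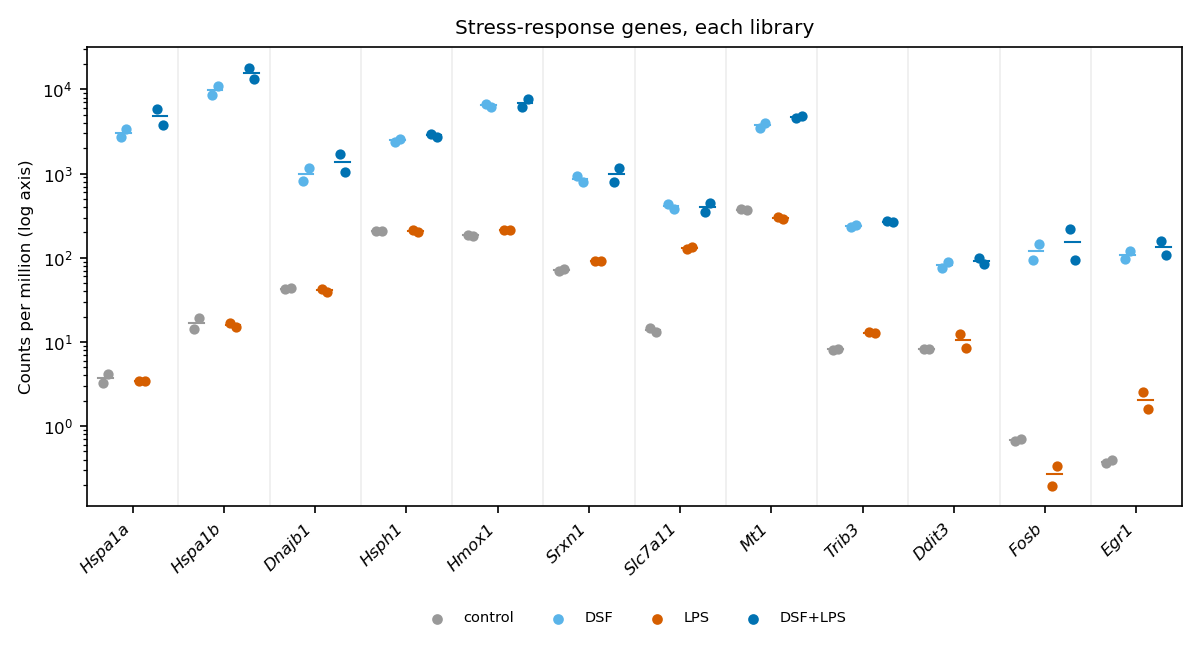
Level of 12 stress-response genes in each of the 8 libraries, in CPM on a log axis; points are libraries and bars are means of the 2 libraries of a group. Every gene was higher in both DSF+LPS libraries than in both LPS libraries, from 3.06-fold for Slc7a11 to 1401-fold for Hspa1a.

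Immediate early genes had the highest list median, 2.41. Of 25 tested, 21 rose, 18 of them at least 2-fold, and 1 fell. Fosb was at 0.196 and 0.335 CPM in the LPS libraries and 216 and 94.8 CPM in the DSF+LPS libraries. It rose by 9.16 ± 0.53 on the log2 scale (adjusted p = 1.71e-09), with the drug libraries further from each other than in most genes. Egr1 was at 2.50 and 1.58 CPM in the LPS libraries and 157 and 109 CPM in the DSF+LPS libraries (log2 fold change 6.03 ± 0.22, adjusted p = 1.37e-11). Dusp1, a phosphatase of MAP kinases, was at 9.48 and 6.84 CPM in the LPS libraries and 349.6 and 303 CPM in the DSF+LPS libraries (log2 fold change 5.32 ± 0.13, adjusted p = 4.98e-13). The 3 genes were below 10 CPM in both LPS libraries, and even the lower drug library of each was many times higher. Nr4a3, an orphan nuclear receptor gene, rose to 5.50 and 3.60 CPM (log2 fold change 5.16 ± 0.56, adjusted p = 2.37e-06). The other AP-1 genes Fos, Jun and Fosl1 rose by 4.07 ± 0.24, 2.77 ± 0.16 and 2.25 ± 0.10. Ier3 fell (-0.31 ± 0.07), and Myc (-0.15 ± 0.29), Klf2 (0.08 ± 0.18) and Nr4a1 (0.01 ± 0.16) were not called.

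Of 19 p53 targets and cell cycle inhibitors, 13 rose, 10 of them at least 2-fold, and 5 fell, with a median log2 fold change of 1.12. Gadd45g was at 2.46 and 2.96 CPM with LPS and 298 and 169.6 CPM with DSF+LPS (log2 fold change 6.43 ± 0.28, adjusted p = 7.51e-11). The p53 target genes Cdkn1a, Mdm2 and Bbc3, which encode a cell cycle inhibitor, a p53 ligase and the killer protein PUMA, rose by 0.75 ± 0.07, 1.35 ± 0.07 and 1.96 ± 0.09. Trp53inp1 rose by 2.79 ± 0.18. Among the genes that fell, Fas, the death receptor, was at 61.7 and 60.7 CPM with LPS and 7.77 and 7.91 CPM with DSF+LPS (log2 fold change -2.96 ± 0.13, adjusted p = 1.13e-10). Ccng1 (-1.17 ± 0.08), Tnfrsf10b (-1.16 ± 0.12), Sesn1 (-0.75 ± 0.16) and Zmat3 (-0.72 ± 0.08) fell as well, and Phlda3 (-0.13 ± 0.26) was not called.

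DNA replication and mitosis genes fell in 18 of 30 cases and rose in 4, with a median log2 fold change of -0.41. Plk1, a mitotic kinase gene, was at 193 and 186 CPM with LPS and 43.8 and 60.1 CPM with DSF+LPS (log2 fold change -1.87 ± 0.12, adjusted p = 6.70e-09). Top2a was at 425 and 447 CPM with LPS and 165 and 152 CPM with DSF+LPS (log2 fold change -1.46 ± 0.07, adjusted p = 1.96e-10). Cenpe and Ccnd1 fell by 1.39 and 1.26 on the log2 scale. The 4 that rose, Mcm5 (0.41 ± 0.07), Mcm7 (0.60 ± 0.08), Pcna (0.63 ± 0.07) and E2f1 (0.75 ± 0.09), act at DNA replication or its entry.

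Cholesterol synthesis genes fell in 20 of 23 cases, 17 of them at least 2-fold, and none rose; the median log2 fold change was -1.44. Hmgcs1, an early enzyme of the pathway, was at 314 and 337 CPM in the LPS libraries and 58.5 and 40.5 CPM in the DSF+LPS libraries. It fell 6.56-fold (log2 fold change -2.71 ± 0.12, adjusted p = 1.23e-10). Hsd17b7 was at 100.5 and 106 CPM with LPS and 18.5 and 21.1 CPM with DSF+LPS (log2 fold change -2.38 ± 0.10, adjusted p = 4.14e-11). Fdft1, squalene synthase, was at 97.8 and 96.2 CPM with LPS and 21.1 and 18.3 CPM with DSF+LPS (log2 fold change -2.30 ± 0.11, adjusted p = 1.50e-10). Nsdhl, a sterol dehydrogenase gene, fell by 1.95 on the log2 scale. The 4 libraries separated by group in every gene named so far in this list. Insig1 (-0.27 ± 0.12), Tm7sf2 (-0.46 ± 0.20) and Ebp (-0.15 ± 0.09) were not called, and Insig1 passed without DSF+LPS library 1 (adjusted p = 3.92e-06). A sterol response element, TCACNCCAC on both strands, was in 1 of 17 matched promoters, that of Hmgcs1 (5.88%), against 1.22% of all genes.

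Lipid export and fatty acid genes went both ways. Of 15 liver X receptor targets and related genes 7 rose and 5 fell, against 33.7% and 31.6% of all tested genes, with a median log2 fold change of 0.13. The lipogenic genes Scd2 (-1.62 ± 0.07), Scd1 (-1.43 ± 0.08), Fasn (-1.17 ± 0.06), Acaca (-0.66 ± 0.10) and Lpcat3 (-0.62 ± 0.08) fell. The cholesterol exporter gene Abcg1 was at 35.2 and 30.5 CPM with LPS and 67.9 and 73.8 CPM with DSF+LPS (log2 fold change 1.11 ± 0.09, adjusted p = 7.96e-08), and Abca1 rose by 0.70 ± 0.08. Mylip, a ubiquitin ligase gene, rose most, at 6.97 and 7.27 CPM with LPS and 108 and 50.8 CPM with DSF+LPS (log2 fold change 3.48 ± 0.28, adjusted p = 6.65e-08), followed by Pltp (2.24 ± 0.51). Nr1h3 (-0.17 ± 0.12), Smpdl3a (0.13 ± 0.19) and Abca9 (-0.14 ± 0.34) were not called.

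Among energy genes, 12 of 26 glycolysis and hypoxia genes rose and 8 fell (median log2 fold change 0.34). The shares over all tested genes were 33.7% and 31.6%. Hif1a, the gene of the hypoxia-inducible factor, was at 208 and 207 CPM with LPS and 63.9 and 62.1 CPM with DSF+LPS (log2 fold change -1.72 ± 0.08, adjusted p = 8.11e-11). Hk2, hexokinase 2, was at 377 and 382 CPM with LPS and 95.5 and 107 CPM with DSF+LPS (log2 fold change -1.91 ± 0.08, adjusted p = 4.42e-11). Adm, adrenomedullin, rose from 0.245 and 0.430 to 21.4 and 10.8 CPM, and Vegfa by 2.55 ± 0.11. Of 30 nuclear genes for oxidative phosphorylation subunits 12 rose and 7 fell, none of them 2-fold (4 fell without LPS library 1 or without DSF+LPS library 2), with a median of 0.08 and a range from Cycs (-0.69 ± 0.12) to Uqcrq (0.93 ± 0.07). The 13 aldehyde dehydrogenase genes tested had a median of 0.05; Aldh1a1 was not among them. Aldh2, whose enzyme is a known target of DSF, was at 371 and 343 CPM with LPS and 568 and 553 CPM with DSF+LPS (log2 fold change 0.65 ± 0.06, adjusted p = 3.86e-07), Aldh18a1 rose by 0.54 ± 0.08 and Aldh1l2 by 1.65 ± 0.12, and Aldh1a3, at 0 in both LPS libraries, had 30 counts over both drug libraries, at least 10.8-fold higher. Aldh1b1 (-0.87 ± 0.23) and Aldh3b1 (-0.72 ± 0.13) fell.

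Over all genes with a mean of 5 CPM or more, a ranking by fitted fold change named 10 rises, 9 of them of genes with no counts in either LPS library. The fitted value of such a gene depends on the prior count, so its place in the ranking is not established, and the rises of Hspa1a (1401-fold), Hspa1b (992-fold) and Fosb (572-fold) exceed each lower bound given here. Hfm1, a meiotic helicase gene, was at 27.6 and 18.3 CPM with DSF+LPS, at least 318-fold higher. Scn4a, a muscle sodium channel gene, was at 27.9 and 10.2 CPM and at least 267-fold higher. The same holds for Fam117a (at least 195-fold), Plekha6 (173-fold), Uncx (162-fold), CT025671.4 (102-fold), the carboxypeptidase gene Cpm (96.3-fold), Atp1b2 (95.2-fold) and Rasd1 (91.9-fold); Hspa1a was the other gene named. Such genes passed the filter on low counts only through the drug libraries and had to differ: of 422 tested genes with no counts in either LPS library, 421 rose. None of the 10 names other than Hspa1a belongs to a list above, and all were also detected with DSF alone.

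By the same ranking the 10 falls named were Clec2d, Gbp5, Otor, Il12b, Mmp8, Nos2, Serpina3f, Il1b, Il6 and Ifit2. Clec2d, a ligand for a receptor of natural killer cells, was at 12.2 and 12.9 CPM with LPS and 0.151 and 0.0546 CPM with DSF+LPS (log2 fold change -6.82 ± 0.41, adjusted p = 2.23e-09). Serpina3f, a serine protease inhibitor gene, was at 7.46 and 6.17 CPM with LPS and 0.101 and 0.164 CPM with DSF+LPS (log2 fold change -5.63 ± 0.55, adjusted p = 4.62e-07). Otor and Mmp8 had 3 counts each over both drug libraries, which gives 64.7-fold lower CPM for Otor (95% counting interval 21.8 to 316) and 64.1-fold lower for Mmp8, a neutrophil-type collagenase (21.6 to 313). By class, 33.5% of 12448 protein-coding genes rose and 36.6% fell, against 36.7% and 12.3% of 1677 long non-coding or unconfirmed genes. Of the protein-coding genes 298 had no counts in either LPS library and 297 of these rose. Of the non-coding or unconfirmed genes 85 had none, and all 85 rose. Such genes could not fall, and their part in the class difference was not tested.

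The same drug step was also made without LPS, in DSF alone over control, and the 2 comparisons share no library. Over all tested genes the 2 log2 fold changes had a Pearson r of 0.844, a description across genes, which are not independent. The drug step without LPS was called for 58.1% of genes (31.0% rose and 27.1% fell). Of the 7865 genes called in both, 7523 went the same way (4064 rose and 3459 fell) and 342 went opposite ways. The difference between the 2 drug steps (with LPS minus without) was called for 3217 genes (19.7%), upward for 7.58% and downward for 12.2%. These 1236 upward and 1981 downward calls were 719 and 1284 without LPS library 2, the upward calls were 769 and 795 without control library 1 or 2, and the downward calls were 1303 without control library 1 and 1291 without DSF library 1. By list, it was downward and called for 46 of 46 interferon-stimulated genes, 16 of 21 cytokine genes, 12 of 15 chemokine genes and 17 of 28 NF-kB genes, and upward for none of these. Their medians without LPS were -0.84, 1.34, 0.29 and -0.04. Without LPS 30 of the interferon-stimulated genes fell and 5 rose, and 1 of the cytokine genes fell and 12 rose. Some of these genes, such as Il6 (0 and 0.654 CPM) and Gbp5 (0.362 and 0.349 CPM), were near 0 in the control libraries and had little room to fall without LPS. The difference was called for 8 of 23 heat shock genes (3 upward, 5 downward) and 8 of 23 cholesterol genes (2 upward, 6 downward). Each share exceeds the 19.7% of all tested genes. The medians of these 2 lists were 1.46 and -1.44 with LPS and 1.56 and -1.38 without. The heat shock and cholesterol counts rest on single libraries: with 1 library left out, the heat shock genes had 0 (without LPS library 2, control library 2 or DSF library 1) to 7 (without DSF+LPS library 2) upward calls and 1 to 4 downward calls, and the cholesterol genes 1 to 3 upward calls and from 3 (without DSF library 1) to 7 downward calls.

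Single genes had like or unlike drug steps with and without LPS. Hmox1 had 188 and 181 CPM in the control libraries and 6762 and 6183 CPM with DSF alone, and its drug step without LPS was 5.13 ± 0.10 on the log2 scale, a difference of -0.11 ± 0.12 from the step with LPS (adjusted p = 0.593). Ptgs2 had 13.7 and 12.1 CPM in the control libraries and 107 and 121 CPM with DSF alone, a rise of 3.15 ± 0.09, where it fell after LPS; the difference was -4.86 ± 0.12 (adjusted p = 6.77e-12). Cd14 likewise rose without LPS, by 1.61 ± 0.10, and fell with it, with a difference of -2.50 ± 0.14 (adjusted p = 1.34e-08). Cxcl2 had 1.97 and 2.53 CPM in the control libraries and 41.1 and 46.3 CPM with DSF alone, a drug step of 4.26 ± 0.16, and its difference was -4.17 ± 0.20 (adjusted p = 2.33e-09). In Hmox1 the levels with the drug were alike with and without LPS, while in Ptgs2 and Cxcl2 the level with both agents exceeded that with the drug alone. Trem2 went the other way: the drug step was -0.28 ± 0.07 without LPS and 1.04 ± 0.07 with it, a difference of 1.32 ± 0.10 (adjusted p = 4.26e-07). Ly96 had 2.95 and 2.40 CPM in the control libraries and 8.06 and 8.11 CPM with DSF alone, so that its drug step was 1.60 ± 0.21 without LPS and the difference -0.23 ± 0.30 was not called (adjusted p = 0.657).

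**Figure D4:**
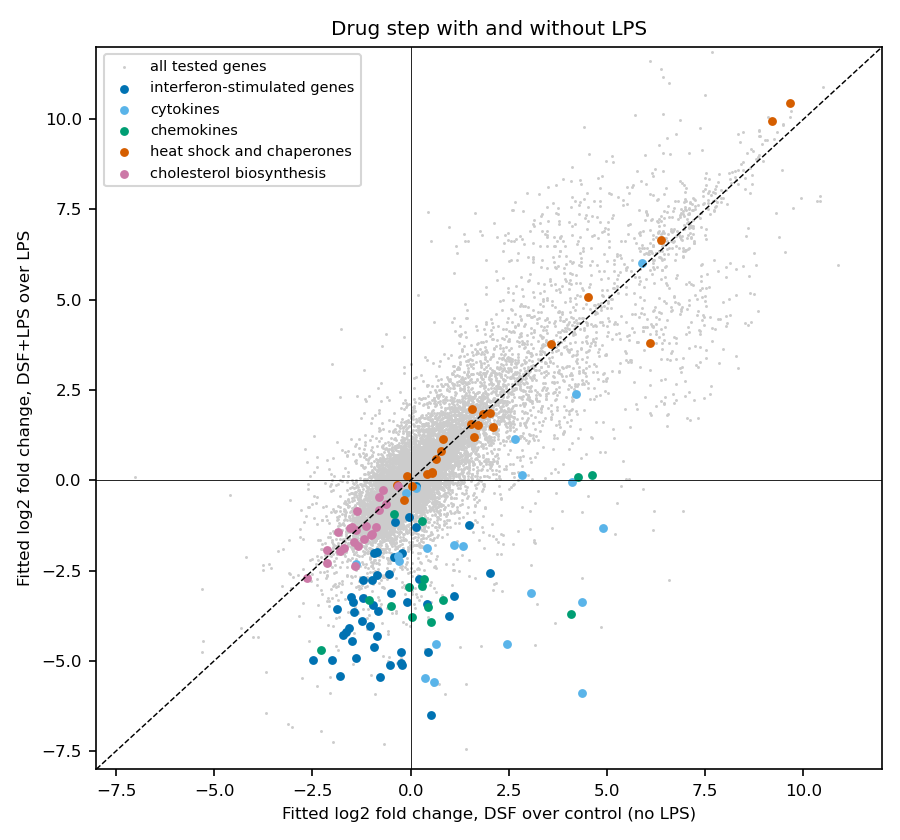
Fitted log2 fold change of the drug step without LPS (horizontal) and with LPS (vertical) for each of 16304 tested genes, of which 1 lies outside the axes; coloured points are members of 5 lists and the dashed line marks equal change. Heat shock and cholesterol genes have list medians near the line, and interferon-stimulated, chemokine and most cytokine genes lie below it.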

How the data were processed

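Messenger RNA libraries of iBMDM cells were compared, 2 with DSF+LPS and 2 with LPS, within a fit of all 8 libraries in 4 groups. RNA was extracted with TRIzol and prepared with a VAHTS kit for mRNA-seq, per the labels' protocols. The authors deposited raw read counts per gene as whole numbers. GRCm39 and DESeq2 are named, without their role, in the submitters' processing notes; the aligner, the counter, the annotation and how strand and multiply matching reads were handled is not given in the sources used here. This leaves counts of near-identical, overlapping or antisense genes uncertain.

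Of 55414 gene identifiers, 52081 matched a symbol; 16304 genes passed filterByExpr (minimum count 10, minimum total count 15). Counts were tested with edgeR 4.0.16 (R 4.3.3), TMM scaling and the quasi-likelihood test, with 1 mean per group and Benjamini-Hochberg adjustment over all tested genes. The SE of a log2 fold change is its size over the square root of the F statistic. CPM use TMM-scaled totals, except marker sums, which use plain totals. Where a group had no counts, the fold is a lower bound that sets the group's sum to 3 counts. With 1 to 3 counts a 95% exact counting interval is given, which covers counting error only. Library totals from 19637058 to 21357810 set the precision.

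The text names a panel of 10 genes, the 10 largest fitted rises and falls among called genes with a higher group averaging 5 CPM or more and groups that do not overlap, up to 4 called members of each of 23 lists, and members of small counts; other genes named were chosen after their values were seen, and some genes the rule names are not reported here. Members, lists and motifs were chosen with earlier results of these data known. Promoters were RefSeq windows on GRCm38.p6, searched over the 250 bases before the start site. Matches of different motifs overlapped in at most 49 of 32851 windows. No coordinates of the files' own build are given. The fit was tested on simulated counts with 200 genes changed, far fewer than the 65.3% of genes called here. That simulation cannot show how scaling or error rates hold at such a share. Alternatives were DESeq2 1.42.0, other scalings, other filters, the 4 LPS libraries alone, each of the 4 libraries left out and a replicate block; the same alternatives (except the 4 LPS libraries alone), with the control and DSF libraries left out in turn as well, were added after seeing the data for the drug step without LPS and for the difference of the steps. The replicate numbers were not taken to pair the samples. The differences between replicates 1 and 2 in the 2 groups had a correlation of 0.0531 across genes. That value cannot show whether same-numbered libraries were handled together.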

Additional observations from a re-analysis of the deposited data

Results flagged for a closer look

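The drug step with LPS was set against the drug step without it for a chosen set of 38 genes. The set holds the panel, the ranked genes and others added after their values were seen, and every added gene was called. Hmox1, compared above and not called, is not in the set. For 25 of the 38 genes the difference of the steps passed edgeR's quasi-likelihood test of the interaction (adjusted p under 0.05, all 8 libraries). Over all tested genes 19.7% passed, and the share in a chosen set is no result about all genes. The values below are that difference on the log2 scale, with the step with LPS minus the step without, ± its standard error; this comparison shares the LPS and DSF+LPS libraries with the results above and is no separate support for them.

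The difference was negative for 18 genes. Among cytokines it was -2.29 ± 0.15 for Tnf, -6.19 ± 0.67 for Il1b, -5.84 ± 0.87 for Il6, -2.70 ± 0.14 for Osm and -4.14 ± 0.46 for Il10. Osm and Il10 were not called in the comparison with LPS, but their steps were 2.84 without LPS and 0.14 with it for Osm and 4.11 without LPS and -0.04 with it for Il10. Il12b had -10.28 ± 1.75, but the control libraries had no counts of it, so that its size depends on the prior count and is no bound. The chemokine genes Cxcl10 and Cxcl2 had -4.14 ± 0.18 and -4.17 ± 0.20. The interferon-stimulated genes Ifit1, Ifit2 and Gbp5 had -4.89 ± 0.17, -4.66 ± 0.18 and -7.02 ± 0.54. The effector genes Nos2 and Ptgs2 had -6.24 ± 0.76 and -4.86 ± 0.12, and the co-receptor gene Cd14 had -2.50 ± 0.14. Clec2d, Mmp8 and Serpina3f had -3.81 ± 0.94, -3.83 ± 1.10 and -6.36 ± 1.39; without DSF library 2 their calls were lost (adjusted p = 0.145, 0.152 and 0.183), and that of Mmp8 also without LPS library 1, DSF+LPS library 1, control library 2 or DSF library 1 (adjusted p from 0.0538 to 0.0613). Slc7a11, the cystine importer gene, had -3.28 ± 0.15; it rose in both steps, by 4.89 without LPS and 1.61 with it.

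The difference was positive for 7 genes. Ddit4 and Osgin1, which rose in both steps, had 2.41 ± 0.26 and 1.99 ± 0.15. The surface receptor genes Trem2 and Tlr9 had 1.32 ± 0.10 and 1.55 ± 0.20, and the cholesterol exporter gene Abcg1 had 1.27 ± 0.13. Smaller differences were those of the metallothionein gene Mt1 (0.67 ± 0.09) and the HSP70 gene Hspa1b (0.76 ± 0.22); that of Hspa1b was not called with DESeq2 (adjusted p = 0.121) or without LPS library 2, control library 2 or DSF library 1 (adjusted p from 0.066 to 0.176).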

How the results depend on the processing

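The 4 counts of all genes in the comparison of DSF+LPS with LPS stayed within 1.5 times under all 11 alternatives: rises ran from 4648 to 6045, falls from 4533 to 5465, rises of at least 2-fold from 2523 to 3798 and falls of at least 2-fold from 1437 to 1775. With the replicate block, which rests on numbers not known to pair the samples, 5455 genes rose and 5141 fell. Bst2, Insig1 and Mmp9 passed the test with it (adjusted p = 0.0489, 0.0409 and 0.0424). Scaling moved the median of all genes from 0.04 to -0.01 (library size alone) or 0.07 (DESeq2 size factors or relative log expression factors). Of 215 called genes followed, 206 kept call and sign in all 11 alternatives, and the other 9 are given with their exceptions above. Fkbp4, not called, passed under 4 alternatives (adjusted p from 0.0336 to 0.0494), and on library size alone G6pdx, Tm7sf2, Bst2, Hspa5, Insig1, Mmp9 and Tnfsf9 passed (0.0367, 0.0353, 0.0111, 0.0366, 0.0285, 0.0311 and 0.0322). Without a filter Hspa5, Insig1 and Mmp9 passed (0.0113, 0.000652 and 0.0181). The counts of the drug step without LPS stayed within 1.5 times; those of the difference of the steps, with 1 of the 8 libraries left out, ran from 719 to 1753 upward and from 1284 to 2067 downward. Leaving out a library leaves 1 in its group, which is assumed to vary like the others.

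All sign changes were in genes not called, with small fold changes, and the cause was not tested. On library size alone the log2 fold change was -0.0057 for Gsdme, -0.023 for Hexa, -0.038 for Lyz2, -0.042 for Nploc4, -0.042 for Nr4a1, -0.021 for Ppp1r15b and -0.011 for Ufd1. Without a filter it was -0.0038 for Nploc4 and -0.0055 for Nr4a1. Ikbkb had 0.0077 with DESeq2, 0.0077 with relative log expression factors, 0.0049 with the 1 CPM filter and 0.020 on the 4 LPS libraries alone, where Il10 had 0.0046. With 1 library left out the sign also changed (lowest to highest) in Abca9 (-0.36 to 0.094), Cxcl2 (-0.086 to 0.26), Cxcl3 (-0.26 to 0.48), Fdx1 (-0.021 to 0.16), Gsdme (-0.15 to 0.22), H2-T23 (-0.13 to 0.32), Herpud1 (-0.16 to 0.26), Hexa (-0.0051 to 0.049), Hsf2 (-0.045 to 0.42), Ikbkb (-0.070 to 0.032), Il10 (-0.16 to 0.087), Klf2 (-0.12 to 0.27), Lyz2 (-0.018 to 0.031), Nlrp1b (-0.45 to 0.64), Nploc4 (-0.048 to 0.069), Nr4a1 (-0.27 to 0.25), P2ry12 (-0.65 to 0.17), Phlda3 (-0.38 to 0.077), Ppp1r15b (-0.031 to 0.094), Pycard (-0.13 to 0.29), Tlr4 (-0.26 to 0.040), Trim16 (-0.42 to 0.038), Ufd1 (-0.028 to 0.086), Vcp (-0.15 to 0.011) and Zfp36 (-0.12 to 0.43).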

Other observations

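Of 2049 tested pseudogenes, 33.6% rose with DSF+LPS against LPS and 18.1% fell, with a median log2 fold change of 0.27. Of them 35 had no counts in either LPS library and could not fall, and all 35 rose. How reads that match both a pseudogene and its parent gene were counted is not known here.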
